A study of Homo sapiens with 4 samples.

Results

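The BCL2 family decides whether a cell keeps the outer membrane of its mitochondria intact. Pro-survival proteins hold effector proteins in check, and BH3-only proteins, named for the short helix that fits into a groove of the pro-survival proteins, release or activate the effectors. Once active, the effectors open the outer membrane, and factors such as cytochrome c reach the cytosol and start the caspases. The 10 genes described here were selected by name, as rows of the deposited gene tables, from 20003 genes with a symbol. They are the pro-survival genes BCL2L1 (BCL-XL), BCL2L2 (BCL-W) and MCL1, the effectors BAX and BAK1, and the BH3-only genes PMAIP1 (NOXA), BBC3 (PUMA), BCL2L11 (BIM), BAD and BIK.

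The samples were 4 RNA sequencing libraries of HCT116, a human colorectal carcinoma line deficient in mismatch repair and known to carry a frameshifted BAX allele that gene-level values cannot show. Of these, 2 were control libraries labelled shPLKO and WT, shPLKO 1 and shPLKO 2 (pLKO is a lentiviral hairpin vector; the series text calls the control shScramble). The other 2, shNUDT21 1 and shNUDT21 5, came from cells in which NUDT21 was knocked down; the labels give treatment as none for every library. NUDT21, also called CFIm25, belongs to the cleavage factor Im complex; it recognises UGUA in nascent mRNAs and helps to choose where they are cleaved and polyadenylated. Whether the numbers 1 and 5 name hairpins or repeats, and whether a group's libraries are of independent cultures, is not given in the sources used here. A p-value therefore covers only how far these libraries lie apart, which may reflect technical variation.

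Values were taken as RPKM from how they behave, that is, reads scaled to gene model length and to library size. Levels can thus be compared between genes only as far as the model length fits the transcripts present. The libraries held between 29963980 and 30459886 reads, as recovered from the steps of the values. Each of the 10 genes rested on 675 to 12307 reads per library. NUDT21 itself stood at 24.3 and 26.9 RPKM in the controls, against 3.96 (shNUDT21 1) and 2.999 RPKM (shNUDT21 5), a log2 fold change of -2.58 (limma adjusted p 0.0406, but 0.0653 with no filter on low values and 0.116 and 0.111 without shPLKO 1 or shPLKO 2). Of the epithelial markers, EPCAM stood at 129.8 and 131.6 RPKM in the controls, against 162.2 (shNUDT21 1) and 179.9 RPKM (shNUDT21 5). VIL1, CDX1 and LGALS4, of differentiated intestinal cells, lay under a mean of 1 RPKM. The intestinal markers CDX2 and KRT20 lay above it. CDX2 was 4.67 and 4.23 RPKM in the controls, against 6.11 and 6.05 RPKM in shNUDT21 1 and 5. KRT20 was 1.87 and 1.88 against 1.34 and 1.02 RPKM. Summed over 10 epithelial markers the level was 9221 to 9873 RPKM in the controls and 3428 to 4154 RPKM in the knockdown, and the keratins KRT8 and KRT18 made up most of that sum. Both keratins were lower in the knockdown (ratios of means 0.326 and 0.329, limma adjusted p 0.0406 for each). The sum does not stand for every marker. Of the 7 epithelial markers tested, 4 had a negative and 3 a positive log2 fold change. The latter were EPCAM, CDH1 and CDX2 (ratios of means 1.31, 1.28 and 1.37), of which 0 passed the test over all genes. Of the leukocyte markers 4 of 5 were under a mean of 1 RPKM, as were 4 of 5 fibroblast and 4 of 4 endothelial markers. Their sums were 45.1 to 47.3, 6.77 to 7.32 and 0.498 to 0.572 RPKM in the controls, against 24.8 to 92.9, 5.28 to 7.68 and 0.338 to 0.499 RPKM in the knockdown. The exceptions were CD68 and COL1A1. The part of these marker levels in any result was not tested.

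PMAIP1 was the only member to pass the test over all genes described below, and that call was close to the threshold. Its promoter is shown because it carries the core of a cyclic AMP response element, the kind of site bound by ATF and CREB factors. Beside it stand BAD, which holds the same core, and BAX, which holds the E-box repeatedly. Each sequence is the 250 bases before a RefSeq transcript start in GRCh38.p14, written 5' to 3' on the gene's strand. These are chr18:59899746-59899995 on the plus strand for PMAIP1, chr11:64284705-64284954 on the minus strand for BAD and chr19:48954625-48954874 on the plus strand for BAX. Capitals mark matches, on either strand, to TGACGT (cyclic AMP response element core), CACGTG (E-box), GGGCGG (GC box) and CCAAT, of which none overlaps another motif's match.

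PMAIP1: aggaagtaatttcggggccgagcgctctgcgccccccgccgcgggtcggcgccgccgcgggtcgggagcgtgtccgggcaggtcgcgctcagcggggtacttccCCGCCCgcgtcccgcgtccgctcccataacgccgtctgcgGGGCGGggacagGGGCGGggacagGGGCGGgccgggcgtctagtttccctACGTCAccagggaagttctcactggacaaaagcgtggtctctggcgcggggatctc

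BAD: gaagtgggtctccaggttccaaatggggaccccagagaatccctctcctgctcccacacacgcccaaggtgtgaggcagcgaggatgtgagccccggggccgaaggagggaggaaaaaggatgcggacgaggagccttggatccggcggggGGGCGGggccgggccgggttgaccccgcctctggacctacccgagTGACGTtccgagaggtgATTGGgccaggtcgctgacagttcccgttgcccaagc

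BAX: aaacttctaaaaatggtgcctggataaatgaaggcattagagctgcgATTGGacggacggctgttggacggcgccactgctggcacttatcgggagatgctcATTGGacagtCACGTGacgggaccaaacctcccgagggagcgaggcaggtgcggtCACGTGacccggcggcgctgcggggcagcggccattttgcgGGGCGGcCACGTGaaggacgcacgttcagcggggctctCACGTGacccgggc

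In PMAIP1 the response element core began 56 bases before the start, and 4 GC boxes lay upstream of it. BAD has 2 RefSeq windows with different starts, and the core began 54 bases before the start of the one printed and 93 bases before that of the other. Of 35114 RefSeq windows of this length, 7.1% held the core, 42.6% a GC box, 32.0% CCAAT and 6.35% the E-box. At least 4 GC boxes, as in PMAIP1, were held by 7.63% of the windows. The BAX window held 4 E-boxes, with first bases 138, 93, 45 and 14 bases before the start. At least 4 were held by 5 windows (0.0142%), BAX included, a cut set at the number BAX holds. MCL1, BCL2L2 and BIK were not in the promoter table. A match describes letters, not binding, and a missing match says only that those letters are not in the window.

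NUDT21 acts through UGUA, so the last UGUA of the annotated 3' untranslated region was also read, in 1 GENCODE v29 transcript per gene. Of the 10 members, 6 held a UGUA in the last 100 bases before the annotated end, against 52.9% of 11027 tested genes with such a region. The last site of each is printed within 30 bases of RNA, with only that UGUA in capitals. BBC3 and BCL2L2 held 4 and 2 UGUA in those 100 bases. An earlier UGUA of each is in lower case in its window.

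PMAIP1: aacauggggauuuUGUAuaaccagggauaa

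MCL1: guugguugucaaaUGUAguguguuucccua

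BCL2L11: ugugcaauacugcUGUAaauaacugcagau

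BAX: uuuuucuuacuuuUGUAauuauuggggggu

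BBC3: uguacaugauuuuUGUAuguuuccuuuuca

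BCL2L2: uuuuuguguaauaUGUAaugaucguauuaa

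The printed UGUA began 23 bases before the annotated end in PMAIP1, 39 in BBC3, 59 in BCL2L2, 64 in MCL1, 65 in BAX and 71 in BCL2L11. As for the promoters, a UGUA here is a match of letters and not a measure of binding by NUDT21. Whether these cells use the annotated end was not measured. Over the whole region, MCL1 and BCL2L11 had 7.80 and 7.83 UGUA per kilobase, above the median of 4.76 over the tested genes. PMAIP1 was close to that median, with 3 sites in 689 bases (4.35 per kilobase), and BAD and BIK had none. The deposited values give a single level per gene, so a change of cleavage site within a gene was not measured. Each gene has the same model length in every library. The part of such a change in any level, fold change, sum or ratio given here was not tested.

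In the control cells the members ranged widely. BCL2L1 was the highest, at 110.3 ± 0.80 RPKM (SD, n = 2), above 94.9% of the 11124 tested genes. BAX followed at 75.8 ± 2.90, then MCL1 at 65.9 ± 0.52, BIK at 53.7 ± 0.69 and BAD at 51.4 ± 2.71 RPKM. Next came PMAIP1 at 45.8 ± 0.51, BBC3 at 32.1 ± 0.74 and BAK1 at 30.6 ± 2.11 RPKM. The values of BIK and BAD overlapped between libraries, as did those of BBC3 and BAK1, so neither pair is ordered beyond its spread. BCL2L2 and BCL2L11 were the lowest, at 8.02 ± 0.17 and 6.80 ± 0.57 RPKM, above 47.1% and 42.5% of the tested genes. In both knockdown libraries PMAIP1 moved from the sixth place among the 10 to rank 1.

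**Figure D1:**
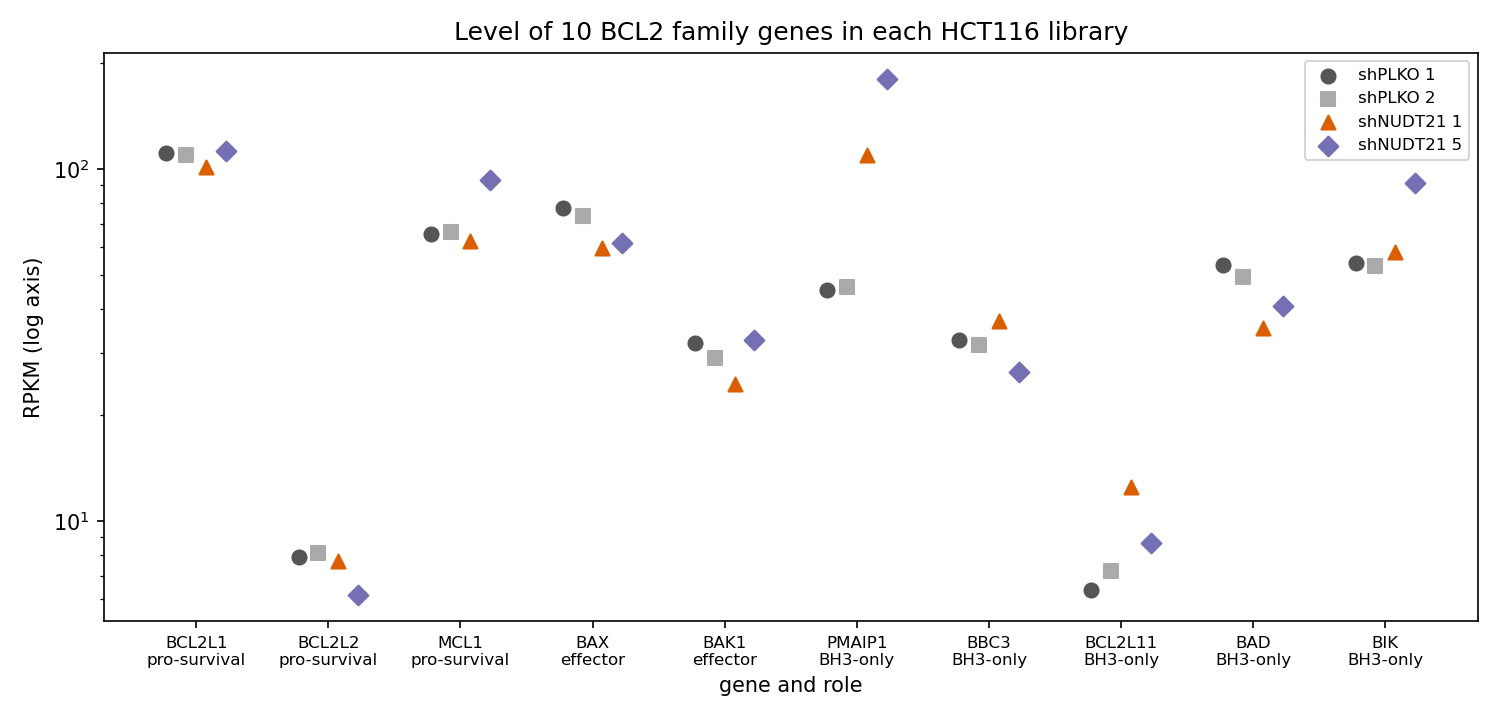
RPKM (log axis) of the 10 genes in each of the 4 libraries, grouped by role; each point is 1 library. PMAIP1 lies at 45.5 and 46.2 RPKM in the controls and at 110.1 and 181 RPKM in the knockdown, while BCL2L1 stays between 101 and 113 RPKM.

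Against the controls, 1 of the 10 genes rose and 0 fell past the test (limma on log2 of RPKM + 1, Benjamini-Hochberg adjusted p under 0.05 over all 11124 genes tested). Over all tested genes the same test called 5.82%, and 2.61% as higher (290 higher and 357 lower, or 118 and 92 with the GC content and length trend removed). At an unadjusted p under 0.05 the members had 2 higher and 1 lower (limma). All 11124 tested genes had 1851 higher and 1922 lower at that threshold. The median log2 fold change of the 10 was -0.04, against -0.0027 over all tested genes. In 6 of the 10 members the control and knockdown values did not overlap, while the share over all tested genes was 66.2%, so separated groups were as frequent here as elsewhere. The log2(RPKM + 1) scale understates changes of weakly expressed genes; the ratio of mean RPKM is therefore given as well. In bulk RNA, fewer cells of a kind and less RNA per cell cannot be told apart.

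PMAIP1 encodes NOXA, a BH3-only protein that binds MCL1 with preference and promotes its degradation. It rose from 45.5 and 46.2 RPKM in shPLKO 1 and 2 to 110.1 and 181 RPKM in shNUDT21 1 and 5. Both knockdown libraries were high and far above the controls, with shNUDT21 5 the higher. The ratio of means was 3.17 and the log2 fold change 1.60 (SE 0.26, 95% interval 0.92 to 2.29, limma adjusted p 0.0457). The call was close to the threshold: the limma adjusted p was 0.400 and 0.345 without shPLKO 1 or shPLKO 2, 0.0794 with no filter on low values, and 0.0689 after removal of the GC content and length trend. The log2 fold change was 1.25 without shNUDT21 5 and 1.96 without shNUDT21 1.

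BCL2L11 encodes BIM, which binds all the main pro-survival proteins and can activate BAX and BAK directly. It stood at 6.40 and 7.21 RPKM in the controls, against 12.5 (shNUDT21 1) and 8.66 RPKM (shNUDT21 5). Both knockdown libraries were above both controls, most of all shNUDT21 1. The ratio of means was 1.55 (log2 fold change 0.55, 95% interval 0.022 to 1.08), and it did not pass over all genes (limma adjusted p 0.137). Exons of BCL2L11 overlap 727 bases of an antisense noncoding gene, MIR4435-2HG, and whether reads were counted by strand is not given in the sources used here.

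BIK, a BH3-only protein found largely at the endoplasmic reticulum, was 54.2 and 53.2 RPKM in the controls, against 58.2 (shNUDT21 1) and 91.2 RPKM (shNUDT21 5). The groups did not overlap, but shNUDT21 1 lay only just above the controls. The ratio of means was 1.39 and the log2 fold change 0.43 (95% interval -0.20 to 1.07, limma adjusted p 0.272), 0.11 without shNUDT21 5 and 0.67 with the GC content and length trend removed. BBC3 encodes PUMA, which binds all the main pro-survival proteins, and was 32.6 and 31.6 RPKM in the controls, against 37.0 (shNUDT21 1) and 26.5 RPKM (shNUDT21 5). Those knockdown values lay on either side of the controls, so the ratio of means of 0.990 averages opposite deviations. Its interval ran from -0.54 to 0.47 on the log2 scale (limma adjusted p 0.916). The sign of its fold change turned to 0.23 with the GC content and length trend removed and to 0.010 with quantile normalization.

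BAD, which binds BCL-XL, BCL-W and BCL2 and is held inactive by phosphorylation, was 53.3 and 49.5 RPKM in the controls, against 35.5 (shNUDT21 1) and 41.0 RPKM (shNUDT21 5). Here the knockdown libraries were both below the controls. The ratio of means was 0.744 (log2 fold change -0.42, 95% interval -0.79 to -0.051), which did not pass over all genes (limma adjusted p 0.117). With the trend of GC content and length removed the log2 fold change was -0.12. Exons of BAD overlap 404 bases of GPR137 on the opposite strand.

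Of the effectors, BAX was 77.8 and 73.7 RPKM in the controls, against 59.6 (shNUDT21 1) and 61.7 RPKM (shNUDT21 5). The groups were separate and each was tight, with a ratio of means of 0.801. The log2 fold change was -0.32 (95% interval -0.64 to 0.011, limma adjusted p 0.157), and -0.048 with the GC content and length trend removed. BAK1, the partner effector that sits at the mitochondrial membrane before any signal, was 32.0 and 29.1 RPKM in the controls, against 24.6 (shNUDT21 1) and 32.8 RPKM (shNUDT21 5). Its knockdown values fell outside the controls on both sides. Its ratio of means was 0.939 and the log2 fold change -0.10 (95% interval -0.58 to 0.38, limma adjusted p 0.722). That sign turned to 0.13 with the GC content and length trend removed. BAK1 has 2 annotated processed pseudogenes, BAK1P1 and BAK1P2, with which reads could be shared.

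The pro-survival genes did not pass the test. BCL2L1 was 110.9 and 109.8 RPKM in the controls, against 101.3 (shNUDT21 1) and 112.6 RPKM (shNUDT21 5), so the groups overlapped, with a ratio of means of 0.969. The log2 fold change of -0.046 had the narrowest interval among the pro-survival genes, -0.40 to 0.30 (limma adjusted p 0.824), and its sign turned to 0.16 with the GC content and length trend removed and to 0.040 with quantile normalization. Gene-level values do not tell its long, pro-survival splice form from the short, pro-apoptotic form, and its exons overlap 1424 bases of the antisense gene ABALON.

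MCL1, a pro-survival protein of very short half-life, was 65.5 and 66.3 RPKM in the controls, against 62.4 (shNUDT21 1) and 93.3 RPKM (shNUDT21 5). The high value was that of shNUDT21 5 alone, with shNUDT21 1 slightly under the controls. The ratio of means was 1.18 and the log2 fold change 0.21 (95% interval -0.38 to 0.79, limma adjusted p 0.542), -0.078 without shNUDT21 5, 0.50 without shNUDT21 1 and 0.065 with the GC content and length trend removed. BCL2L2 was 7.90 and 8.14 RPKM in the controls, against 7.73 (shNUDT21 1) and 6.16 RPKM (shNUDT21 5). The groups did not overlap, with shNUDT21 1 only just below the controls. The ratio of means was 0.866 and the log2 fold change -0.19 (95% interval -0.59 to 0.21, limma adjusted p 0.419), or -0.084 with the GC content and length trend removed. BCL2L2 shares 813 exonic bases on the same strand with the read-through gene BCL2L2-PABPN1, so its reads could be divided with that gene.

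**Figure D2:**
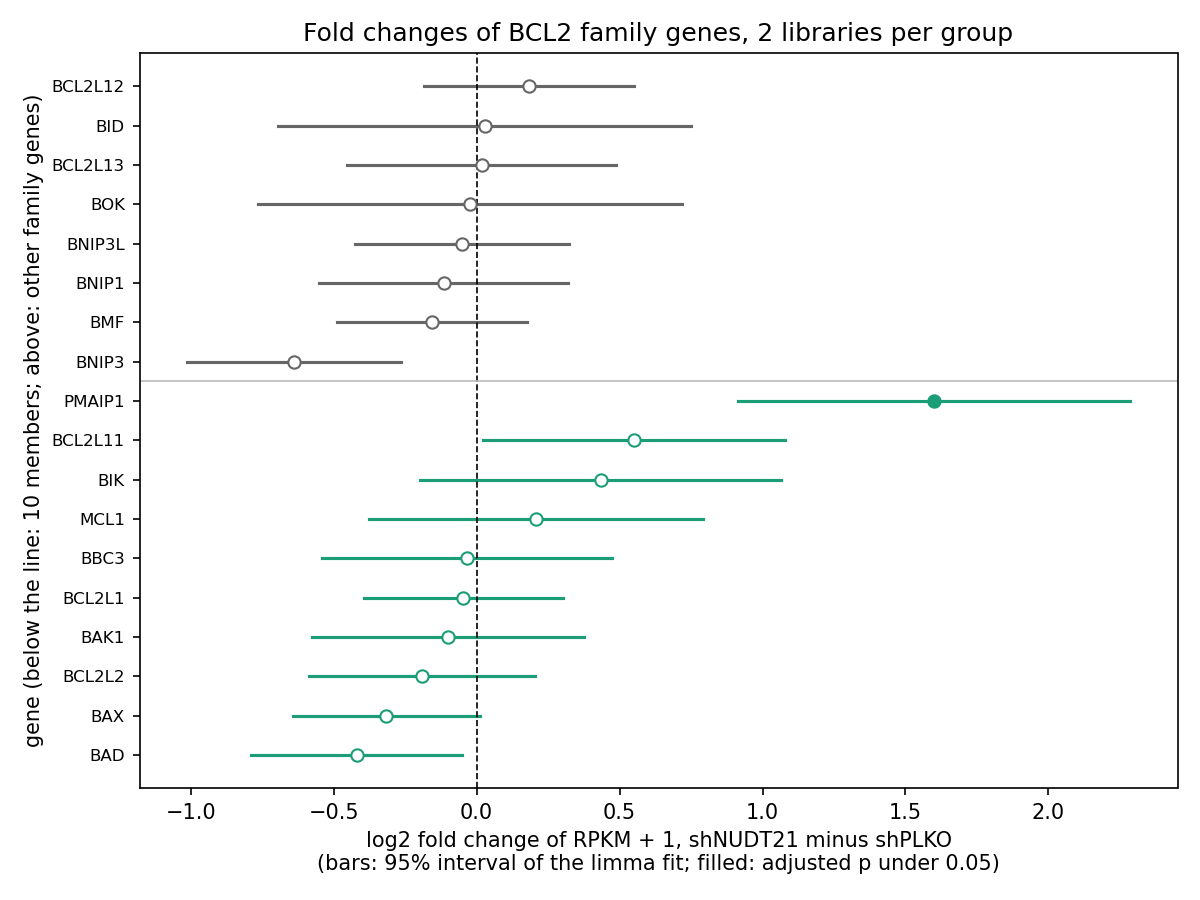
Log2 fold change of RPKM + 1 (shNUDT21 minus shPLKO, 2 libraries per group) for the 10 members, below the line, and the 8 other family genes tested, above it. Bars are 95% intervals of the limma fit and a filled point marks an adjusted p under 0.05, which was PMAIP1 at 1.60.

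The knockdown libraries differed from each other more than the controls did. Between shPLKO 2 and shPLKO 1 the members' ratios ran from 0.907 to 1.13, and 0 of the 10 were at least 1.5-fold apart, as were 0.485% of all tested genes. Between shNUDT21 5 and shNUDT21 1, 2 of the 10 were that far apart, PMAIP1 (1.64) and BIK (1.57), with MCL1 just inside at 1.496. Over all tested genes 25.4% were that far apart, so such a difference was common. For PMAIP1 the 95% counting intervals were 107 to 113 RPKM in shNUDT21 1 and 177 to 184 RPKM in shNUDT21 5, and for MCL1 they were 61.0 to 63.7 and 91.7 to 94.99 RPKM. These exact Poisson intervals cover counting error only, since no molecular identifiers are described, and the gap between the libraries exceeded it. Of the 10 members, 7 were higher in shNUDT21 5 and 3 in shNUDT21 1, the latter being BCL2L11, BBC3 and BCL2L2.

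**Figure D3:**
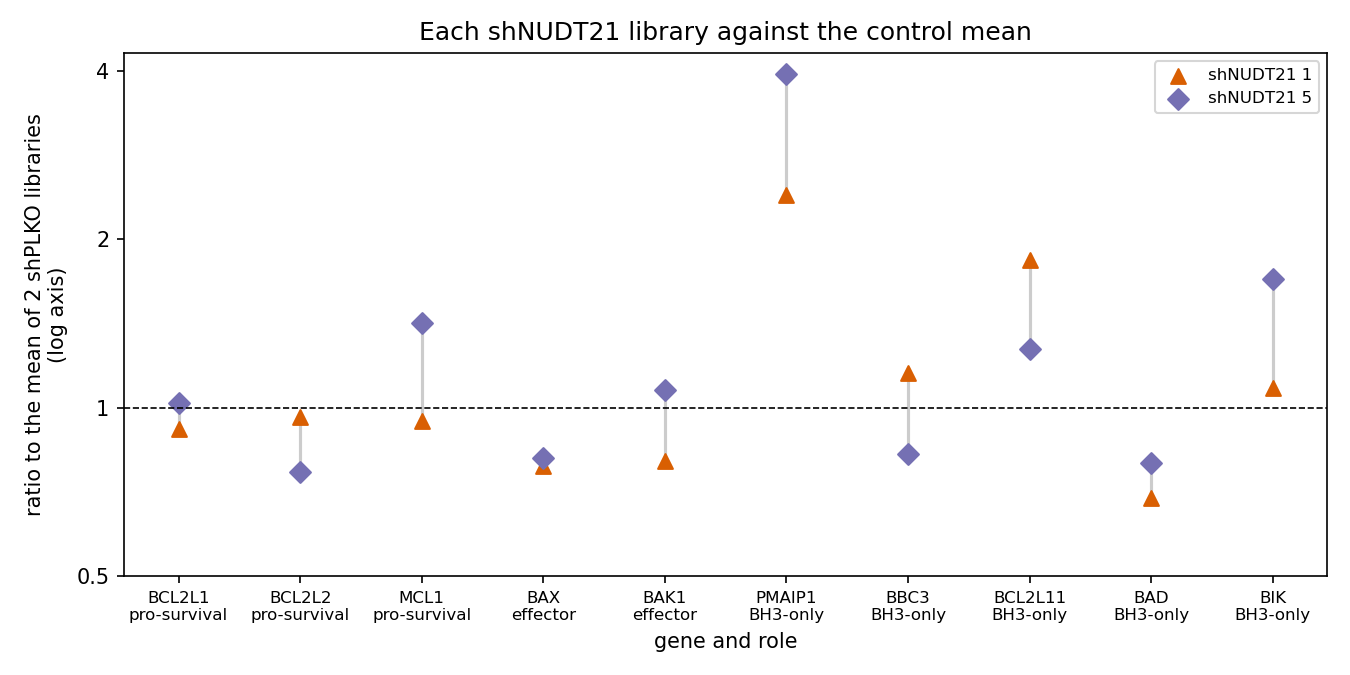
Ratio of each knockdown library to the mean of the 2 controls (log axis) for the 10 members; the line joins the 2 libraries of a gene and the dashed line is no change. PMAIP1 lies at 2.40 and 3.94, BCL2L11 at 1.83 and 1.27, and BIK at 1.08 and 1.70 in shNUDT21 1 and 5.

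Summed by role, the BH3-only genes stood higher in both knockdown libraries, and PMAIP1 made up most of that difference. Their summed level was 192 and 188 RPKM in the controls, against 253 (shNUDT21 1) and 348 RPKM (shNUDT21 5). Without PMAIP1 the sums were 146.5 and 141.5 against 143.1 and 167.4 RPKM, and PMAIP1 went from 23.7% and 24.6% of the sum to 43.5% and 51.9%. The pro-survival sum was 184.3 and 184.2 RPKM in the controls, against 171 (shNUDT21 1) and 212 RPKM (shNUDT21 5). The effector sum was 109.9 and 102.8 against 84.2 and 94.5 RPKM, below the controls in both knockdown libraries.

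The ratio of the BH3-only to the pro-survival sum was 1.04 and 1.02 in the controls and 1.48 and 1.64 in shNUDT21 1 and 5. Without PMAIP1 it was 0.795 and 0.768 against 0.835 and 0.789. For the pair of NOXA and its binding partner, PMAIP1 stood at 0.694 and 0.697 of the MCL1 level in the controls and at 1.76 and 1.94 times that level in the knockdown. This ratio was alike in both knockdown libraries although both genes were higher in shNUDT21 5. These sums and ratios are of mRNA levels and were given no test.

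**Figure D4:**
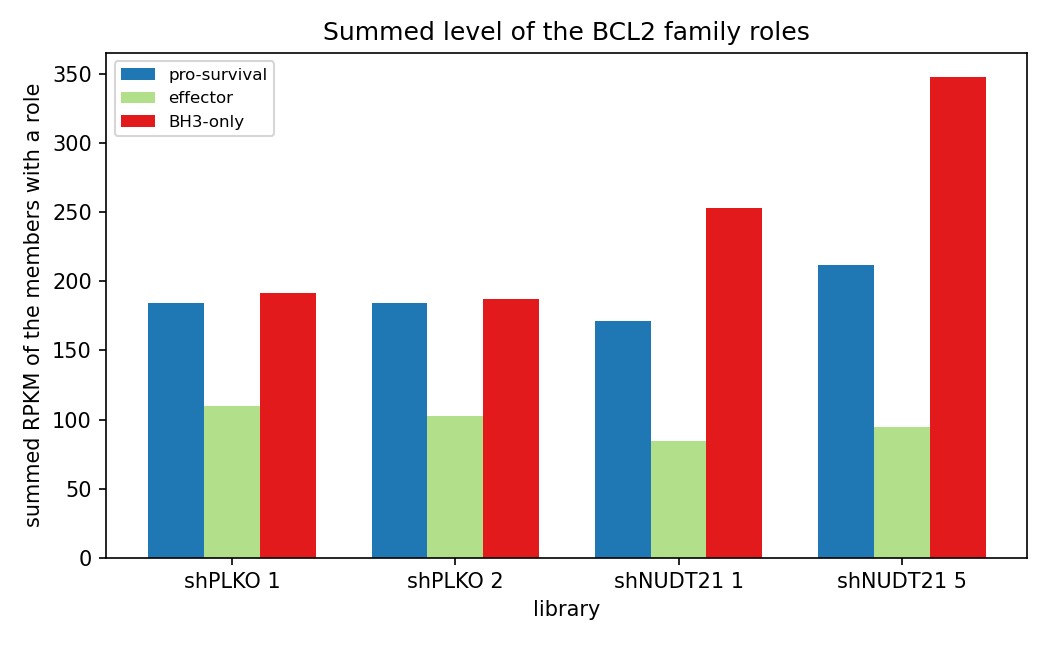
Summed RPKM of the pro-survival, effector and BH3-only members in each library (bars start at 0, 1 bar per role and library). The BH3-only bar goes from 192 and 188 RPKM in the controls to 253 and 348 RPKM in shNUDT21 1 and 5.

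Of the 14 other family genes listed, 6 lay under the filter of a mean of 1 RPKM: BCL2, BCL2A1, BCL2L10, BCL2L14, BCL2L15 and HRK. BCL2 itself, the founding pro-survival gene, was between 0.187 and 0.262 RPKM, from 63 to 89 reads per library. BCL2A1 had 1 to 3 reads and BCL2L10 at most 1. BCL2L1 and MCL1 were thus the pro-survival genes with by far the highest levels in these cells. Of the 8 tested, 0 passed (limma, 1 at an unadjusted p under 0.05, against 3773 of all 11124 tested genes). Of these 8, 3 had a positive and 5 a negative log2 fold change, against 5541 and 5583 of all 11124 tested genes. The median of the 8 was -0.037. BNIP3, a mitophagy receptor induced by hypoxia, was 42.9 and 42.9 RPKM in the controls, against 24.9 (shNUDT21 1) and 29.7 RPKM (shNUDT21 5) (limma adjusted p 0.0628). BMF, a BH3-only gene, and BCL2L12 had ratios of 0.881 and 1.15, and BNIP1 had a log2 fold change of -0.12, which turned to 0.023 with the GC content and length trend removed (limma adjusted p of these 3 in turn: 0.430, 0.405 and 0.65). BMF went from -0.16 to -0.032 and BCL2L12 from 0.18 to 0.42 on the log2 scale with the GC content and length trend removed.

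Of 10 transcription factors known to act on BH3-only genes, 0 passed over all genes. At an unadjusted p under 0.05 there were 2 higher and 1 lower (limma), against 1851 and 1922 of all 11124 tested genes. Of the 10 factors, 9 had a positive log2 fold change, against 5541 of all 11124 tested genes. The median was 0.45, against -0.0027 over all tested genes. ATF4, the effector of the integrated stress response, was 78.6 and 74.1 RPKM in the controls, against 119.7 (shNUDT21 1) and 104.4 RPKM (shNUDT21 5) (limma adjusted p 0.0785). Its target DDIT3 (CHOP) was 91.4 and 95.7 against 185.3 and 130.0 RPKM (limma adjusted p 0.0916). JUN was 71.4 and 75.7 against 54.6 and 39.1 RPKM (limma adjusted p 0.0979). The control and knockdown values did not overlap in 6 of the 10 factors, these 3 among them, against the 66.2% of all tested genes given above. E2F1, a cell cycle regulator, had a ratio of 1.40 (log2 fold change 0.40, limma adjusted p 0.192), and 0.64 on the log2 scale with the GC content and length trend removed.

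FOXO3, a forkhead factor known to act on BCL2L11 and BBC3, was singled out after its values were seen, because it was high in a single knockdown library. It was 6.78 and 7.85 RPKM in the controls, against 7.25 (shNUDT21 1) and 18.5 RPKM (shNUDT21 5). It did not pass (limma adjusted p 0.361).

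Downstream of the family, 1 of 14 genes of the outer membrane and of released factors fell and 0 rose past the test. Over all 11124 tested genes 357 fell and 290 rose. At an unadjusted p under 0.05 the list had 2 higher and 5 lower (limma), against 1851 and 1922 of all tested genes. In 10 of the 14 the groups did not overlap, against 66.2% of all tested genes. The median log2 fold change was -0.25. HTRA2, a protease released from mitochondria that antagonises inhibitors of apoptosis, fell from 24.4 and 25.4 to 11.1 and 14.3 RPKM (ratio 0.510, limma adjusted p 0.0499). Of the 7 settings with all 4 libraries, only median centring kept that call, at 0.0446; the limma adjusted p of the other 6 lay between 0.0505 and 0.0941. Without shPLKO 1 or shPLKO 2 it was 0.483 and 0.425. ENDOG and AIFM1, which are also released, had ratios of 0.693 and 0.739, and APAF1, the scaffold of the apoptosome, had 1.62 (limma adjusted p 0.0753, 0.104 and 0.0876). The log2 fold change went from -0.48 to -0.17 for ENDOG and from 0.54 to 0.35 for APAF1 with the GC content and length trend removed. Of 10 tested genes that turn over MCL1 or NOXA protein, 0 passed, with a median of 0.098. At an unadjusted p under 0.05 there was 1 (limma), against 3773 of all 11124 tested genes. GSK3B and USP9X, the kinase that marks MCL1 for degradation and a deubiquitinase that stabilises it, had ratios of 1.49 and 1.42 (limma adjusted p 0.139 and 0.160). DUSP6 had 0.686 and USP13 had 1.44 (limma adjusted p 0.194 and 0.378). With the GC content and length trend removed, the log2 fold change went from 0.44 to 0.070 for USP9X and from 0.32 to 0.083 for USP13. USP13 was 1.55 and 1.79 RPKM in the controls, against 3.12 (shNUDT21 1) and 1.70 RPKM (shNUDT21 5), and its log2 fold change was 0.018 without shNUDT21 1. That of DUSP6 was -0.92 without shNUDT21 1 and -0.22 without shNUDT21 5.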

How the data were processed

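RNA was sequenced from 4 libraries of HCT116 cells, prepared with a SMARTer kit per the labels' protocols. Bowtie 0.12.2 and hg18 are named, without a role, per the submitters' processing notes; neither counting tool, annotation nor strand setting is given in the sources used here. The values the authors deposited are taken to be RPKM, 1 library per file, with the unit inferred from the values. Of 20030 rows, 27 with a date in place of a symbol were left out.

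Library totals and member reads were recovered as whole multiples of the step of each gene (tolerance 1e-06). The total rests on 81 genes whose step fitted an annotated transcript length, against 5 for the next total. Differences on log2(RPKM + 1) were tested two-sided with limma 3.58.1 (R 4.3.3; variance prior following mean level) in 11124 genes averaging 1 RPKM or more, with no covariate and 2 residual and 2.71 prior degrees of freedom. On simulated data with the same noise in both groups, the procedure recovered the size and direction of known changes. Its p-values were not checked there, and noise that differs between groups was not simulated. Alternatives were a pseudocount of 0.1, no filter, a mean of at least 5 RPKM, median centring, quantile normalization, no intensity trend, removal of the GC content and length trend (lowess, GENCODE v29), and leaving out each library. Named are NUDT21, the members, and in each list reported here the genes past the test and up to 4 with the lowest p. The members and lists were chosen with earlier results of these data known. RefSeq promoter windows and GENCODE v29 are of another build than hg18 and served only for sequences, lengths and overlaps. MARCH5 (MARCHF5) was listed under both symbols and has no row under either. Some listed genes are not reported here.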

Additional observations from a re-analysis of the deposited data

How the results depend on the processing

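No paired analysis was possible because the groups share only replicate number 1. Over 7 settings other than a left-out library, 63 of 70 member values kept their direction and their side of the threshold. With no filter PMAIP1 had 1.60 (limma adjusted p 0.0794), and with the GC content and length trend removed 1.56 (adjusted p 0.0689). That removal turned BCL2L1 to 0.16, BAK1 to 0.13 and BBC3 to 0.23, and quantile normalization turned BCL2L1 to 0.040 and BBC3 to 0.010; the former also turned BNIP1 to 0.023, and the cause was not tested. Leaving out each library in turn, log2 fold changes ran from -0.12 to 0.029 for BCL2L1, -0.33 to -0.047 for BCL2L2, -0.078 to 0.50 for MCL1, -0.35 to -0.28 for BAX, -0.30 to 0.10 for BAK1, 1.25 to 1.96 for PMAIP1, -0.27 to 0.20 for BBC3, 0.31 to 0.79 for BCL2L11, -0.52 to -0.32 for BAD, 0.11 to 0.75 for BIK, -0.29 to 0.063 for BNIP1 and -0.0081 to 1.23 for FOXO3. Over all genes, 290 were higher and 357 lower, 0 and 0 with no filter (limma, 4762 at an unadjusted p under 0.05), 118 and 92 with the GC content and length trend removed, and 233 lower with a mean of at least 5 RPKM. Leaving out each library gave 0 to 3766 higher and 0 to 4005 lower genes. Without shPLKO 1 or shPLKO 2 there were 1 and 0 higher genes and 0 lower (limma, 1031 and 1198 at an unadjusted p under 0.05). Without shNUDT21 1 or shNUDT21 5 the lone knockdown library is assumed to vary as little as the controls do, so the calls there, members' included, show no stability. The ratio of knockdown to control went from 1.58 to 1.08 for the BH3-only sum without PMAIP1 and from 0.840 to 0.939 for the effector sum without BAX. It went from 1.51 to 0.956 for the BH3-only to pro-survival ratio with both PMAIP1 and BCL2L1 left out, each from its own sum. In each library the members rested on 675 reads or more.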
